A study of Mus musculus with 6 samples.

Results

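The genes described here encode 10 secreted ligands of the transforming growth factor beta (TGF-β) superfamily: the bone morphogenetic protein (BMP) group genes Gdf2, Gdf10, Bmp2, Bmp4 and Bmp10, the activin subunit genes Inhbb, Inhbc and Inhbe, and Tgfb1 and Tgfb2. They were taken by symbol from the 50600 genes in the deposited tables, where each of the 10 had 1 row, and all 10 were among the 14314 genes tested. RNA of whole liver was sequenced from C57BL/6 mice aged 1 month. In 3 libraries the genotype was Dicerloxp/loxp;Alb-cre (Dicer LKO), in which Cre recombinase under the albumin promoter deletes the miRNA-processing enzyme Dicer, and 3 control libraries carried Dicerloxp/loxp without Cre. The series' design text calls the controls wild-type, although their labelled genotype also has the loxP-flanked alleles. The albumin promoter is active in hepatocytes and their bile duct relatives, so the other liver cells are not targeted by the deletion. Whether each library is its own animal is not stated in the labels, so every p-value refers to variation among these 6 samples, part of which may be technical.

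Ligands of this superfamily are secreted as dimers and bind pairs of type I and type II receptor kinases, which phosphorylate SMAD transcription factors. BMPs act mainly through one SMAD branch, which switches on Id genes and the iron hormone hepcidin, and TGF-β and activins through another, which drives matrix and wound-healing genes. In liver, Gdf2 (also called BMP9) and Bmp10 are known as stellate cell products that act on endothelium, Bmp2 as an endothelial signal for hepcidin, Inhbc and Inhbe as hepatocyte products, and Tgfb1 as the main activator of stellate cells in fibrosis.

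Gdf10 and Gdf2, the 2 ligand genes that passed the test, are neighbours on chromosome 14, on the plus strand, with 3055 bases between them (GENCODE M21, build GRCm38). Their promoters are shown because the transcripts of this gene pair were both higher in Dicer LKO. Each runs from 250 bases before to 50 bases after the RefSeq start site (GRCm38.p6), at chr14:33923337-33923636 for Gdf10 and chr14:33940789-33941088 for Gdf2, and capitals mark matches to the motifs named next.
Gdf10: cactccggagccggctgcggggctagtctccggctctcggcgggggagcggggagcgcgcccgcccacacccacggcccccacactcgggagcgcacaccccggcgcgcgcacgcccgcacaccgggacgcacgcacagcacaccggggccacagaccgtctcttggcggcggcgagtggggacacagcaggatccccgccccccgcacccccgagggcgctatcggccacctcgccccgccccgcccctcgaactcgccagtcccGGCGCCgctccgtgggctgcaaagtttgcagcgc
Gdf2: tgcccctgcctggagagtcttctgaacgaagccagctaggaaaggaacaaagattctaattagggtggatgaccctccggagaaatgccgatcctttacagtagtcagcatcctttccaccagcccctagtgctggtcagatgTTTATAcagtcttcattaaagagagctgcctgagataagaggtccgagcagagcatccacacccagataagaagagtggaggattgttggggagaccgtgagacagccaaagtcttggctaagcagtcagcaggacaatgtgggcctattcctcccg
The Gdf10 promoter held 42 CpG dinucleotides and the Gdf2 promoter 6, which put them above 97.0% and 43.6% of all 32851 promoters in the table. Both strands were searched for the TATA box TATAAA, the BMP response element core GGCGCC, the SMAD palindrome GTCTAGAC, the E-box CAGCTG and the STAT consensus TTCNNNGAA, and the matches found in these promoters do not overlap. The Gdf10 promoter had GGCGCC, starting 16 bases after the start site, which 11.9% of all promoters hold. G and C made up 77.3% of that window, and the share was not matched for base content. The Gdf2 promoter had TATAAA on the minus strand, starting 107 bases before the start site, which 13.6% hold. The other motifs had no match in these windows (shares of all promoters 0.213% for GTCTAGAC, 16.3% for CAGCTG and 8.30% for TTCNNNGAA). RefSeq promoters were found for 9 of the 10 ligand genes.

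Dicer makes mature miRNAs, which pair through their seed (bases 2 to 8, in capitals) with 3′ untranslated regions, so seed matches of 9 miRNAs known from liver (let-7a-5p, miR-21a-5p, miR-22-3p, miR-26a-5p, miR-29a-3p, miR-30a-5p, miR-101a-3p, miR-148a-3p and miR-192-5p) were looked up in the longest annotated 3′ untranslated region of each ligand gene. The 3 miRNAs below are those with a match in Gdf10, Gdf2 or Inhbb, the 3 ligand genes with the lowest p among those with a positive log2 fold change (RefSeq sequences, GRCm38.p6).
mmu-let-7a-5p: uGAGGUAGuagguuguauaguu
mmu-miR-148a-3p: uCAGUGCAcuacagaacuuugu
mmu-miR-26a-5p: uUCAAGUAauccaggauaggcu
The matched sites, with the bases complementary to the seed in capitals, are these.
Gdf10, let-7a site: ttcatgaaatgCTACCTCccaattcctgg
Gdf2, miR-148a site: gccctctgacgTGCACTGtgacccttggg
Inhbb, miR-148a site: ctttcaatgttTGCACTGatctagttgca
Inhbb, miR-26a site: ttatatttttaTACTTGAaatgaaatctt
The Gdf10 site is at chr14:33936034-33936062 on the plus strand, and 19.7% of untranslated regions within 20% of its length hold a let-7a match. It starts at base 1532 of an untranslated region of 3470 bases in GENCODE M21. That region is longer than the whole Gdf10 model of 2507 bases behind the deposited counts. Whether the counted model holds the site was not tested. The Gdf2 site is at chr14:33946410-33946438 on the plus strand, with a share of 14.9% for miR-148a. The Inhbb sites are at chr1:119415918-119415946 and chr1:119415973-119416001 on the minus strand, with shares of 16.9% for miR-148a and 12% for miR-26a. Inhbe (miR-21a), Bmp2 (miR-30a) and Tgfb2 (miR-29a at 2 places and miR-148a) also had matches, while Bmp4, Bmp10, Inhbc and Tgfb1 had none for these 9, and other miRNAs were not looked up. A match is a description of the sequence, and no miRNA level was measured in these libraries. The deletion targets cells with an active albumin promoter, and neither Dicer1 nor the ligand transcripts were measured by cell type. Whether any site was active was not tested.

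Library totals were 14141954 to 25049753 counts, the lowest in control replicate 3. Dicer1 was at 28.9, 31.2 and 24.4 CPM (counts scaled to a common library size with TMM factors) in Dicer LKO replicates 1, 2 and 3 and at 42.5, 69.2 and 56.1 CPM in control replicates 1, 2 and 3, in the direction of the labels (log2 fold change −0.99, SE 0.20, edgeR adjusted p = 0.0622). The counts cover every liver cell type and not the deleted part alone. Albumin was at 24330 to 52050 CPM, and 0 of 10 hepatocyte markers were called by edgeR (0 also at an unadjusted p under 0.05 and 0 by DESeq2). Control replicate 3 stood apart through striated muscle transcripts, with Ttn at 3884 CPM against at most 3.27 CPM elsewhere and Myh7 at 79.2 CPM against at most 1.59 CPM, and through a mitochondrial share of 10.2% of counts against 4.62% to 6.46%. Dicer LKO replicates 1 and 2 had 0 counts for the heart muscle genes Nppa, Myh6 and Actc1, which were at 1.35 to 7.65 CPM in the other 4 libraries. Dicer LKO replicate 2 had the cell cycle inhibitor gene Cdkn1a at 34.8 CPM against at most 3.83 CPM in the others. Values without these libraries are given where they change a call.

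Per transcript length (TPM, the length-corrected share of transcripts, as deposited), Inhbc was the most abundant of the ligand genes in the controls, at 11.2, 10.8 and 16.9 TPM, and Tgfb2 the least, at 0.16, 0.17 and 0.13 TPM. The control means were ordered Inhbc (12.9), Inhbe (6.91), Gdf2 (4.82), Bmp2 (3.54), Tgfb1 (2.37), Gdf10 (1.39), Bmp10 (0.847), Bmp4 (0.647), Inhbb (0.333) and Tgfb2 (0.153 TPM). Neighbours in that order whose libraries overlapped were Inhbe and Gdf2, Bmp10 and Bmp4, and Bmp4 and Inhbb. In Dicer LKO the order of mean TPM was Inhbc (7.96), Gdf2 (7.35), Inhbe (5.12), Gdf10 (4.35), Bmp2 (2.49), Tgfb1 (1.77), Inhbb (0.960), Bmp4 (0.767), Bmp10 (0.657) and Tgfb2 (0.180). There the libraries of neighbours overlapped except between Gdf2 and Inhbe, Gdf10 and Bmp2, and Bmp10 and Tgfb2. Gdf10 thus moved from the sixth to the fourth place, above every library of Bmp2, which had lain above it in the controls. These levels rest on the gene models in the deposited tables, where Gdf10 was 2507 bases long, against 5210 bases for its longest transcript in GENCODE M21.

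**Figure D1:**
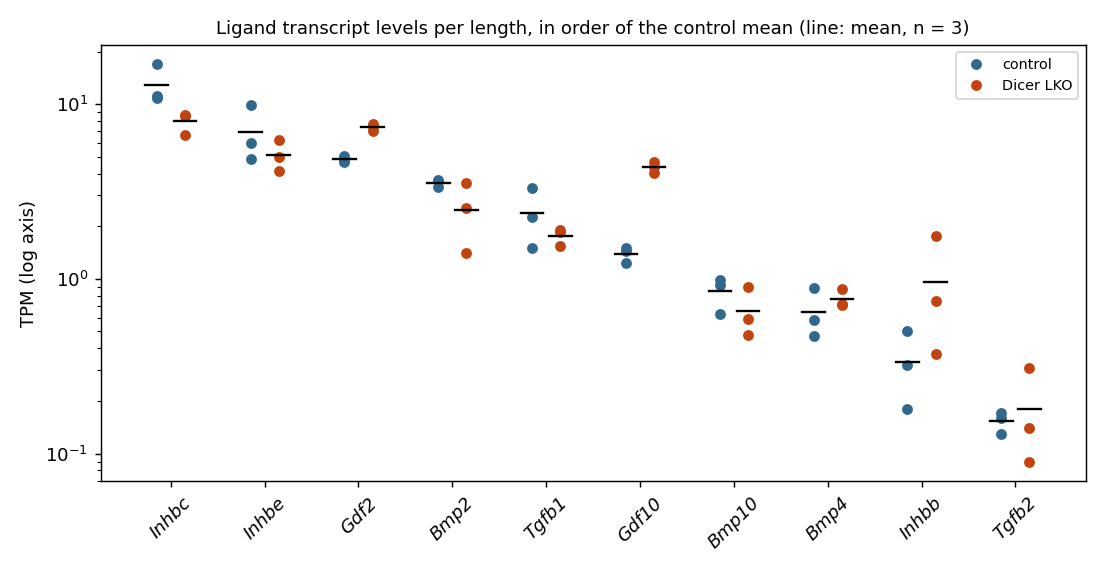
Transcript level of each ligand gene in every library in TPM on a log axis, in the order of the control mean, with control libraries in blue, Dicer LKO libraries in orange and a line at each group's mean (n = 3). Gdf10 lies at 1.24 to 1.5 TPM in the controls and at 4.01 to 4.67 TPM in Dicer LKO, and the Gdf2 points of the groups are likewise apart.

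Gdf10 (ENSMUSG00000021943.6, chromosome 14, 33923587 to 33937983, plus strand), a distant BMP relative closest to BMP3, was the ligand gene with the lowest p. It was measured at 13.7, 17.1 and 14.3 CPM in Dicer LKO replicates 1, 2 and 3 and at 3.92, 4.75 and 4.59 CPM in control replicates 1, 2 and 3. Every Dicer LKO library lay above every control. The means were 15.04 ± 1.82 and 4.42 ± 0.442 CPM (SD, n = 3 each), a ratio of 3.40, and the log2 fold change was 1.77 (SE 0.17, adjusted p = 0.0148, edgeR quasi-likelihood). The counts behind it were 298, 359 and 360 against 87, 99 and 72. Leaving out each library in turn gave 1.69 to 1.84 with adjusted p-values of 0.0251 to 0.0410, so this call did not rest on the library with muscle transcripts. It was lost when Dicer LKO replicates 1 and 2 were both left out (1.74, adjusted p = 0.112), which leaves 1 library against 3.

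Gdf2 (ENSMUSG00000072625.1, chromosome 14, 33941039 to 33947198, plus strand), a circulating BMP that keeps endothelium quiescent, was at 30.3, 31.1 and 30.4 CPM in Dicer LKO against 19.3, 19.0 and 17.2 CPM in the 3 controls. The groups did not overlap, and the spread within each was small: 30.6 ± 0.450 against 18.5 ± 1.13 CPM (SD, n = 3 each), a ratio of 1.65. The log2 fold change was 0.72 (SE 0.12, adjusted p = 0.0414, edgeR). Its value stayed between 0.70 and 0.77 without any 1 library, but the call held only without control replicate 1 (adjusted p = 0.0393). Leaving out Dicer LKO replicate 1, 2 or 3 gave an adjusted p of 0.143, 0.0815 or 0.138, and leaving out control replicate 2 or 3 gave 0.0803 or 0.0951. Scaling by library totals instead of TMM factors gave 0.61 with an adjusted p of 0.0663.

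Gdf10 rose by more than its neighbour Gdf2. The ratio of Gdf10 to Gdf2 CPM within a library was 0.451, 0.55 and 0.472 in Dicer LKO and 0.203, 0.25 and 0.267 in the controls, 2.05-fold apart in the means, and needs no scaling between libraries. The groups did not overlap, and 3 against 3 libraries can give no exact two-sided permutation p under 0.1, the value found here (adjusted over 28 ratios, 0.175). The other protein-coding genes within 200000 bases of the pair (Rbp3, Zfp488, Gm5460, A630023A22Rik, Antxrl, Anxa8 and Npy4r) were at means of at most 0.133 CPM in either group and were not tested.

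Stellate cell markers were set beside Gdf2, known as a stellate cell product, and its neighbour Gdf10, whose cell of origin was not measured. Ratios to markers of other cell types were not made. Of 12 markers, all tested, 0 were called by edgeR and 7 had an unadjusted p under 0.05 (58.3%, against 21% of all genes tested). DESeq2 and voom with sample weights each called 5 as higher, where they called 7.05% and 5.5% of all genes in either direction. The median log2 fold change was 0.40, with 7 positive and 5 negative values. The growth factor Hgf (0.96, adjusted p = 0.0636), the pericyte gene Rgs5 (1.18, 0.0891), the matrix proteoglycan Dcn (0.86, 0.0633), the transcription factor Hand2 (0.93, 0.0797) and the receptor Pdgfrb (0.79, 0.0812) had positive values. The retinol-storing enzyme Lrat (0.29) and Reln (−0.025), which mark quiescent stellate cells, had overlapping groups. Negative values were also found for Ecm1 (−0.55, adjusted p = 0.139), Ngfr (−0.50, 0.468), Lhx2 (−0.50, 0.5) and Des (−2.32, 0.353). Des was at 62.5 CPM in control replicate 3, the library with muscle transcripts, and at 3.42 to 5.34 CPM elsewhere. In whole liver, more cells of a type and more RNA per cell cannot be told apart.

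Without Des, the stellate markers summed to 645 to 743 CPM in Dicer LKO and to 479 to 515 CPM in the controls. Gdf10 relative to that sum was 0.0184, 0.0248 and 0.0222 in Dicer LKO and 0.00762, 0.00936 and 0.00958 in the controls, 2.46-fold higher in the means. Gdf2 relative to the same sum was 0.0408, 0.0451 and 0.0471 against 0.0375, 0.0375 and 0.0359, 1.199-fold higher. Neither set of ratios overlapped between groups (exact two-sided permutation p = 0.1 for each, the lowest possible). Relative to Dcn, Gdf10 remained 1.84-fold higher without overlap, whereas Gdf2 was at 0.126, 0.136 and 0.119 against 0.132, 0.130 and 0.161, with overlapping groups and a lower mean (exact two-sided permutation p = 0.3). Relative to Hgf and to Lrat, Gdf2 also overlapped (ratios of means 0.873 and 1.33), and relative to Reln it did not (1.70). The Gdf2 difference thus depended on the marker it was set against. The Gdf10 difference was above 1.78-fold against each of Lrat, Reln, Dcn, Hgf and the sum. Ratios to the other single markers were not made, among them Rgs5, which had the highest log2 fold change of the list (1.18). Whether the Gdf10 difference holds against those markers was not tested. The 28 ratios that were made were chosen after the values were seen.

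**Figure D2:**
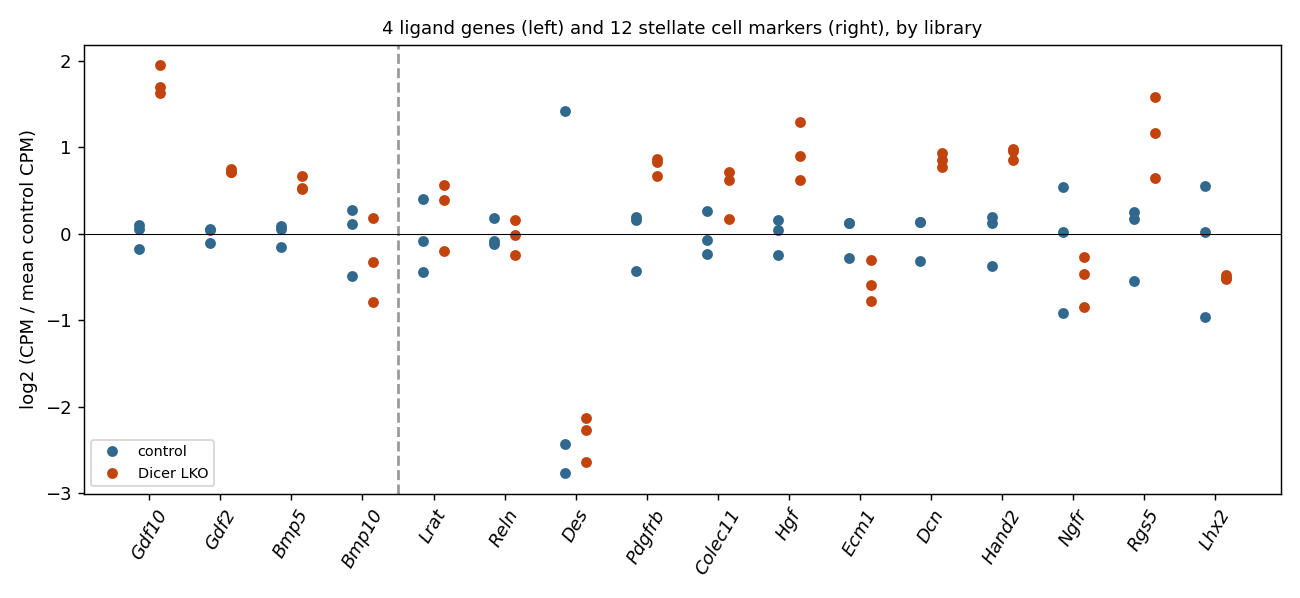
Log2 of each library's CPM over the mean control CPM for Gdf10, Gdf2, Bmp5 and Bmp10 (left of the dashed line) and 12 stellate cell markers (right), with control libraries in blue and Dicer LKO libraries in orange. Gdf10 has the highest orange points, Gdf2 lies at the height of Pdgfrb, Dcn and Hand2, and the single high blue point of Des is control replicate 3.

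Bmp10 (ENSMUSG00000030046.6, chromosome 6, 87428994 to 87437677, plus strand), which shares its receptor with Gdf2, was at 5.69, 4.002 and 2.91 CPM in Dicer LKO against 5.41, 6.05 and 3.57 CPM in control liver. The groups overlapped, with a log2 fold change of −0.26 (SE 0.30, adjusted p = 0.667, edgeR). Single libraries moved it, to −0.54 without Dicer LKO replicate 1, −0.43 without control replicate 3, −0.079 without control replicate 2 and −0.049 without Dicer LKO replicate 3. Relative to Gdf2, itself called as higher, it was 0.188, 0.129 and 0.0958 against 0.280, 0.318 and 0.207. These did not overlap (exact two-sided permutation p = 0.1, the lowest possible, adjusted over 28 ratios 0.175). Relative to Dcn and Hgf it was also lower without overlap (ratios of means 0.471 and 0.427). Relative to Reln (0.850), Lrat (0.614) and the stellate sum without Des (0.601) the groups overlapped (exact two-sided permutation p = 0.5, 0.4 and 0.2). Bmp10 is also a product of heart atria. The libraries with no Nppa, Myh6 or Actc1 counts were Dicer LKO replicates 1 and 2, with heart marker sums of 2.38 and 1.95 CPM. Their Bmp10 values lay within the range of the other 4, whose heart marker sums were 15.3 to 3992 CPM. The highest sum, in control replicate 3, was mostly the striated muscle gene Ttn, so it does not measure heart alone. Myl7, an atrial gene, was at or under 0.191 CPM in all 6. Whether heart tissue contributed to the Bmp10 values was not tested.

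Bmp2 (ENSMUSG00000027358.6, chromosome 2, 133552159 to 133562885, plus strand) was at 12.7, 7.48 and 16.8 CPM in Dicer LKO against 15.3, 17.4 and 16.3 CPM in control liver. The controls were close together, and Dicer LKO replicate 2 was the low library of the other group, whose replicate 3 lay among the controls. The log2 fold change was −0.41 (SE 0.27, adjusted p = 0.435, edgeR), and −0.11 without Dicer LKO replicate 2. Bmp4 (ENSMUSG00000021835.14, chromosome 14, 46383520 to 46390669, minus strand), a mesenchymal BMP, was at 1.70, 2.10 and 1.55 CPM against 1.26, 1.01 and 1.85 CPM, from 21 to 44 counts per library. Its groups overlapped (0.39, SE 0.32, adjusted p = 0.537), and the value was 0.22 without control replicate 2 and 0.67 without control replicate 3. The gene overlaps the annotated transcripts Gm15217 and Gm15222, whose reads may not be separated from it.

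The activin C and E subunit genes, both hepatocyte products, lie next to each other on the minus strand of chromosome 10, with 1910 bases between them. Inhbc (ENSMUSG00000025405.9, 127356322 to 127370431) was at 20.9, 22.7 and 15.8 CPM in Dicer LKO against 25.3, 25.6 and 37.2 CPM in control liver. The groups did not overlap, and control replicate 3 was the highest. The log2 fold change of −0.57 (SE 0.21) missed the threshold (adjusted p = 0.176, edgeR) and was −0.34 without control replicate 3. Inhbe (ENSMUSG00000047492.5, 127348857 to 127354411) was at 47.3, 40.5 and 30.2 CPM against 69.3, 43.7 and 33.1 CPM, with overlapping groups and control replicate 1 well above the rest (−0.31, SE 0.29, adjusted p = 0.582). Without control replicate 1 its value was 0.034. The transcript Gm47200 overlaps both genes. The ratio of Inhbe to Inhbc was 2.26, 1.78 and 1.91 in Dicer LKO and 2.74, 1.71 and 0.889 in the controls, again with overlap (exact two-sided permutation p = 0.7).

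Inhbb (ENSMUSG00000037035.5, chromosome 1, 119415465 to 119422248, minus strand), which encodes the activin B subunit and is known to be induced in inflamed liver, had the second largest log2 fold change of the 10 genes and the largest SE of that value. It was at 4.50, 11.3 and 2.15 CPM in Dicer LKO and at 1.76, 1.06 and 2.68 CPM in the control group. Dicer LKO replicate 2, the library with high Cdkn1a, was far above the rest, and replicate 3 lay within the controls. The log2 fold change was 1.72 (SE 0.65, adjusted p = 0.201, edgeR), and it was 0.91 without Dicer LKO replicate 2. DESeq2, which called 7.05% of the genes it tested, gave 1.72 with an adjusted p of 0.0496.

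Tgfb1 (ENSMUSG00000002603.15, chromosome 7, 25687002 to 25705077, plus strand) was at 5.46, 6.00 and 3.47 CPM in Dicer LKO against 4.10, 5.62 and 6.38 CPM in control liver. The groups covered the same range, and the log2 fold change was −0.11 (SE 0.27, adjusted p = 0.855, edgeR). Tgfb2 (ENSMUSG00000039239.14, chromosome 1, 186622792 to 186705989, minus strand) was at 0.871, 0.572 and 1.55 CPM against 0.315, 0.432 and 0.829 CPM, from 7 to 39 counts per library. The groups overlapped (0.97, SE 0.52, adjusted p = 0.328), and the value was 0.50 without Dicer LKO replicate 3 and 1.44 without control replicate 3. Its TPM did not show the same shift, at 0.14, 0.09 and 0.31 against 0.16, 0.17 and 0.13 TPM, because the estimated mix of its 6 transcripts moved the effective length between 1485 and 4920 bases, with the lowest values in control replicates 1 and 2. At this depth a difference in Tgfb2 was not resolved.

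**Figure D3:**
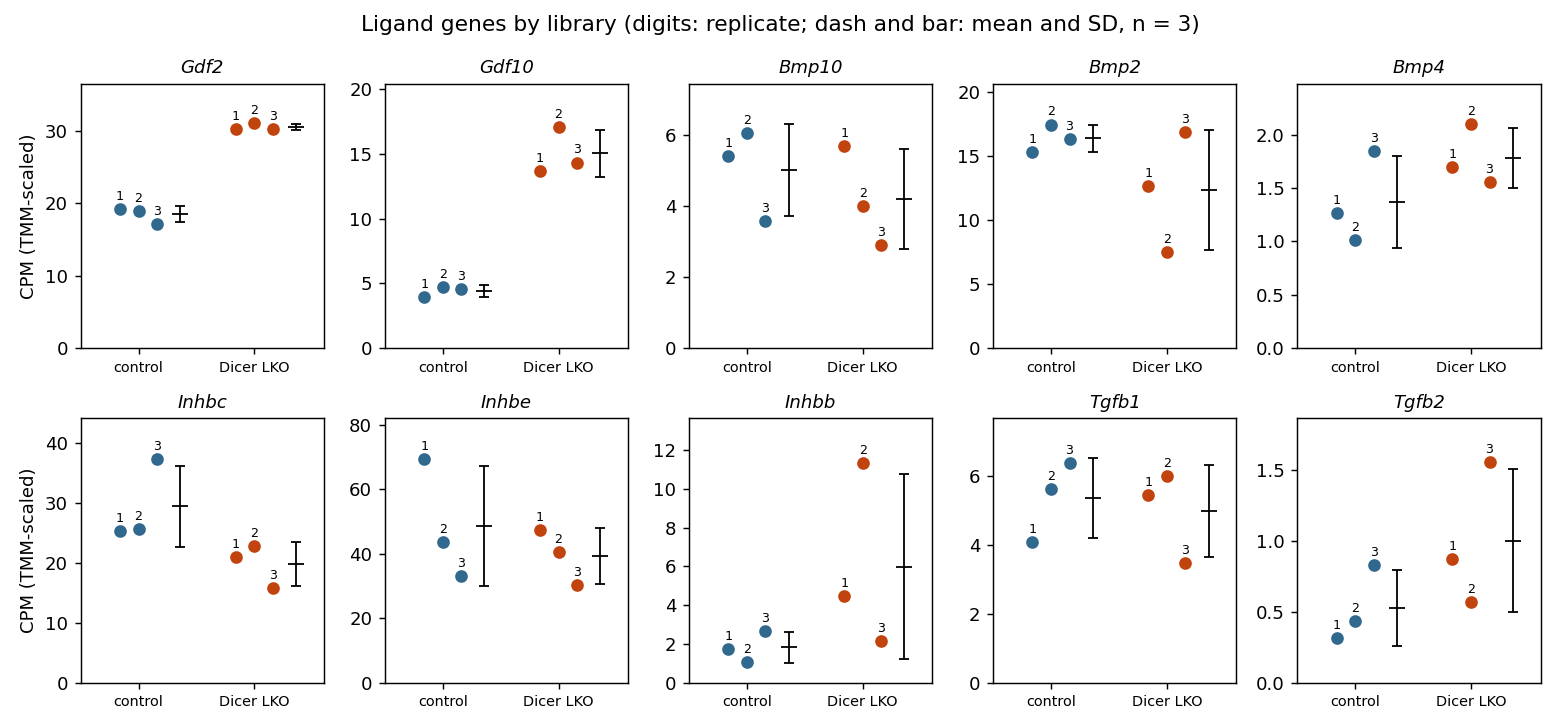
CPM of each of the 10 ligand genes in every library on axes that start at 0, with control libraries in blue, Dicer LKO libraries in orange, the replicate number above each point and the mean and SD (n = 3) beside them. Gdf10, Gdf2 and Inhbc have groups that do not overlap, and Inhbb shows the single high point of Dicer LKO replicate 2 at 11.3 CPM.

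Together, 2 of the 10 ligand genes rose and 0 fell by edgeR, where 1.29% of all 14314 genes tested were called (0.741% as higher). Their groups did not overlap for 3 of 10 genes (30%), beside 28% of all genes tested, and 4 of 10 had an unadjusted p under 0.05 (40%), beside 21%. Values were positive for 5 and negative for 5, with a median log2 fold change of 0.14 against −0.013 over all genes tested. The share of genes without overlap was thus near the background, and the calls were those of Gdf10 and Gdf2. As lower, 0.552% of all genes were called. DESeq2 called 3 of the 10 (7.05% of all genes), voom 2 (5.5%), and edgeR 2 without a filter on low counts (1.78%), 2 with RLE size factors (1.11%) and 1 with library totals (0.72%). Leaving out Dicer LKO replicate 1, 2 or 3 left 1 of the 10 called each time, where 0.265%, 0.623% and 0.212% of all genes were, and leaving out control replicate 1, 2 or 3 left 2, 1 and 1, where 2.63%, 0.415% and 0.157% were.

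**Figure D4:**
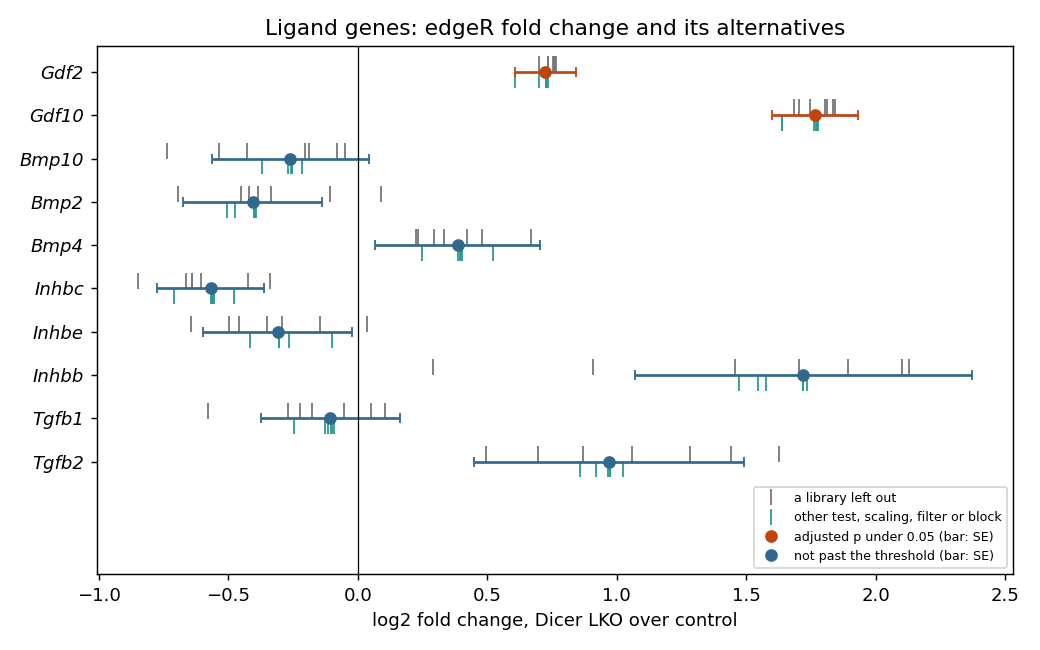
Log2 fold change of each ligand gene (Dicer LKO over control) from edgeR with its SE, in orange where the adjusted p was under 0.05, with grey ticks for fits without 1 library (or without Dicer LKO replicates 1 and 2) and green ticks for the other test, scaling, filter and block settings. The ticks of Gdf10 and Gdf2 stay beside their points, and those of Inhbb run from 0.29 to 2.13.

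Other ligands of the superfamily were mostly too low to test: 7 of 23 passed the filter, with 0 called by edgeR. Among them, 2 had an unadjusted p under 0.05 (28.6%, against 21% of all genes tested). DESeq2 called 1, where it called 7.05% of all the genes it tested. That gene was Bmp5, the most abundant of them per length, at 18.9, 20.9 and 19.1 CPM in Dicer LKO and 13.7, 14.02 and 11.9 CPM in the controls. It did not overlap between groups (log2 fold change 0.57, SE 0.13, edgeR adjusted p = 0.0796, DESeq2 adjusted p = 0.0272). Inhba, the activin A subunit gene, was at 2.27 to 5.003 CPM against 1.82 to 6.25 CPM (−0.18, adjusted p = 0.863). Bmp6, the other main hepcidin-inducing BMP of liver endothelium, was at 1.05 to 3.15 against 1.39 to 3.33 CPM (−0.46, adjusted p = 0.633).

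Receptor genes showed no call by edgeR among 13 tested of 18 (median −0.034). An unadjusted p under 0.05 was found for 4 (30.8%, against 21% of all genes tested). DESeq2 called 1 as lower, where it called 7.05% of all the genes it tested in either direction. The most abundant per length were the hepcidin co-receptor gene Hfe2 (hemojuvelin), at 0.08 on the log2 scale (adjusted p = 0.869), and the endothelial co-receptor gene Eng (−0.25, adjusted p = 0.321). Acvrl1, the type I receptor of Gdf2 and Bmp10, was at 4.63, 3.24 and 5.14 CPM in Dicer LKO and 2.43, 2.64 and 2.87 CPM in the controls. The groups did not overlap, but the value missed the threshold (0.71, SE 0.24, adjusted p = 0.152, edgeR). Another BMP type I receptor gene, Acvr1, was at 8.48, 8.39 and 8.17 CPM against 11.7, 12.8 and 16.3 CPM, the 1 gene of this list that DESeq2 called (−0.70, edgeR adjusted p = 0.0796, DESeq2 adjusted p = 0.0268).

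All 8 SMAD genes were tested and had negative values by edgeR, with a median of −0.25. By edgeR or DESeq2 0 were called, and 3 had an unadjusted p under 0.05 (37.5%, against 21% of all genes tested). The median was between −0.37 and −0.11 in every other setting, and 1 or 2 genes turned positive in 5 of them. Smad4, the common partner of both branches, was at 24.3, 24.01 and 25.02 CPM in Dicer LKO and 30.6, 31.1 and 28.4 CPM in the controls (−0.30, adjusted p = 0.198). Smad2, of the TGF-β branch, was at −0.049 (adjusted p = 0.883).

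BMP-SMAD target genes were negative for 9 of 11 tested (median −0.56, against −0.013 over all genes), with 0 called by edgeR. An unadjusted p under 0.05 was found for 4 (36.4%, against 21%), and DESeq2 called 1 as lower (7.05% of all genes in either direction). EdgeR called 1 as lower without Dicer LKO replicate 3, with the replicate number as a block, or without a filter on low counts. In these settings 0.212%, 1.71% and 1.78% of all genes were called. Hepcidin (Hamp) was at 0.367, 0.143 and 28.1 CPM in Dicer LKO and 256, 103 and 153 CPM in the controls. The groups were apart, but Dicer LKO replicate 3 was far above the other two of its group, and the test missed the threshold (−4.15, SE 1.76, adjusted p = 0.260, edgeR). Id2 was at 49.0, 65.9 and 43.4 CPM against 122, 75.5 and 69.2 CPM (−0.76, adjusted p = 0.154). Id3 was the gene called by DESeq2, at 9.63, 7.19 and 10.8 CPM against 23.2, 15.1 and 27.8 CPM (−1.26, SE 0.25, edgeR adjusted p = 0.0625, DESeq2 adjusted p = 9.67e-04). Transcripts of Gdf2 were thus higher in the same libraries in which those of Id3 and hepcidin lay below every control, and whether these are linked was not tested. Smad6, Smad7 and Smad9 are in this list and in the SMAD list.

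TGF-β and activin target genes went both ways, with 8 of 13 tested positive (median 0.40) and 0 called by edgeR. An unadjusted p under 0.05 was found for 6 (46.2%, against 21% of all genes tested). DESeq2 called 2 as higher, where it called 7.05% of all the genes it tested in either direction. The median log2 fold change was 0.036 without Dicer LKO replicate 2. Tgfbi, a matrix protein gene, was at 88.3, 66.0 and 91.3 CPM against 53.6, 54.7 and 37.4 CPM (0.75, edgeR adjusted p = 0.0947, DESeq2 adjusted p = 0.0203). Ctgf, a matricellular protein gene, was at 12.3, 16.6 and 22.9 CPM against 4.96, 8.45 and 4.72 CPM (1.51, SE 0.30, edgeR adjusted p = 0.0633, DESeq2 adjusted p = 3.77e-04).

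Genes that store and activate latent TGF-β included 2 that rose, of 14 tested, with 0 lower and a median of 0.24, where 1.29% of all genes tested were called (0.741% as higher). Itgb8, whose integrin frees TGF-β from its latent complex, was at 4.17, 4.43 and 5.58 CPM in Dicer LKO and 1.53, 0.768 and 0.956 CPM in the controls (log2 fold change 2.11, SE 0.31, adjusted p = 0.0319, edgeR). Ltbp1, which tethers the latent complex to matrix, was at 9.17, 10.1 and 9.999 CPM against 4.51, 4.47 and 5.48 CPM (1.02, SE 0.16, adjusted p = 0.0374). Neither gene's groups overlapped, and the list had 0 called members without any 1 of the libraries except control replicate 1, without which it again had 2. Furin, the protease that cleaves the ligand precursors, was at −0.35 (adjusted p = 0.322).

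Extracellular inhibitors and binding proteins ranged from −1.89 to 3.02 on the log2 scale among 13 tested of 19. By edgeR 0 were called, and 7 had an unadjusted p under 0.05 (53.8%, against 21% of all genes tested). DESeq2 called 3 as higher and 2 as lower, where it called 7.05% of all the genes it tested. Decorin (Dcn), which binds TGF-β and is also in the stellate list, was at 241, 228 and 254 CPM against 147, 146 and 107 CPM (0.86, edgeR adjusted p = 0.0633). Twsg1 was at 0.10 (adjusted p = 0.658). Bmper, a BMP-binding protein gene, was at 6.83, 12.5 and 5.46 CPM against 0.721, 1.87 and 0.383 CPM (3.02, SE 0.57, edgeR adjusted p = 0.0624, DESeq2 adjusted p = 2.71e-06). Follistatin (Fst), which traps activins, was at 0.734, 1.29 and 1.04 CPM against 1.76, 4.51 and 5.17 CPM (−1.89, SE 0.44, edgeR adjusted p = 0.0796, DESeq2 adjusted p = 0.00481). Neither gene's libraries overlapped between the groups.

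**Figure D5:**
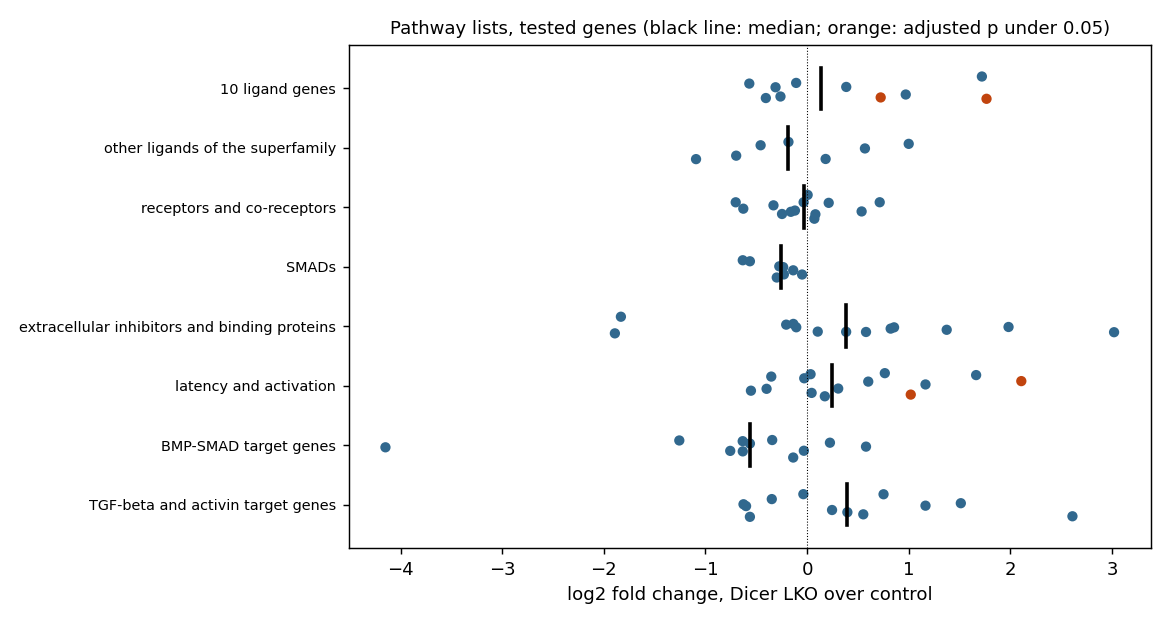
Log2 fold change (Dicer LKO over control, edgeR) of the tested genes in the 10 ligand genes and 7 pathway lists, with a black line at each list's median over all its tested genes and called genes in orange. Points are drawn for 12 of the 13 tested TGF-β and activin targets. Called genes are Gdf10, Gdf2, Itgb8 and Ltbp1, and all points of the SMAD list lie left of 0.

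Markers of other cell types were measured in the same libraries, and their part in the ligand values was not tested. Bile duct markers had 3 genes called as higher of 8 tested, where 0.741% of all genes were (median 2.21, sums of 146 to 273 against 38.4 to 54.7 CPM). By edgeR 1 of them was called without Dicer LKO replicate 1, Dicer LKO replicate 3 or control replicate 2, and 0 without control replicate 3. Endothelial markers had 1 of 14 called as higher by edgeR (Vwf, 1.45), a median of 0.19 and sums of 560 to 685 against 429 to 527 CPM. For 6 of the 14 the unadjusted p was under 0.05 (42.9%, against 21% of all genes tested). As higher, 4 were called by DESeq2, where it called 7.05% of all the genes it tested in either direction. By edgeR 0 were called without Dicer LKO replicate 1, control replicate 2 or control replicate 3, and 2 without control replicate 1. All 12 macrophage markers had positive values (median 0.80, sums of 595 to 769 against 292 to 636 CPM), with 0 called by edgeR. An unadjusted p under 0.05 was found for 6 (50%, against 21% of all genes tested), and DESeq2 called 2 (7.05% of all genes). Platelet markers had 3 of 8 genes tested and heart muscle markers 8 of 15, with 0 called in either list by edgeR or DESeq2. In each list 1 gene had an unadjusted p under 0.05 (33.3% and 12.5%, against 21% of all genes tested). Platelet marker sums overlapped, at 4.10 to 5.24 CPM in Dicer LKO and 3.19 to 4.27 CPM in the controls.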

How the data were processed

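RNA-seq of 6 liver samples was analysed from the tables the authors deposited, 1 per sample, with expected counts (estimated reads per gene, not normalized) and TPM. The column names are those RSEM writes, per the file headers. CASAVA, Bowtie and the human build hg19 are listed, per the submitters' processing notes, although the gene identifiers are mouse. Annotation and strandedness: not given in the sources used here. Of the identifiers, 50376 (99.56%) matched GENCODE M21, which gave coordinates and untranslated regions.

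Expected counts deposited by the authors were rounded (96.0% to 96.5% were whole). After filterByExpr and TMM scaling, the quasi-likelihood test of edgeR was run (edgeR 4.0.16, R 4.3.3, robust setting, genotype as the only term), with Benjamini-Hochberg adjustment over 14314 genes and a threshold of 0.05. The SE of a log2 fold change is its size over the root of the F statistic. DESeq2 1.42.0 and limma 3.58.1 (voom) were alternatives. Single values were compared by an exact two-sided permutation test. The fit was tested on simulated counts. No libraries were duplicates (chi-square per gene at least 26.2). The 10 genes and the lists were chosen with earlier results of these data known. Named were the 10 genes and, per pathway list, up to 4 called genes, or its 2 most abundant per length where fewer than 2 were called. One gene that this rule names is not reported here. Other named genes were chosen after their values were seen.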

Additional observations from a re-analysis of the deposited data

How the results depend on the processing

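The number of genes called was 185 and ran from 23 to 389 without 1 library in turn. It was 1114 with DESeq2, 787 with voom and sample weights, 422 without a filter on low counts and 103 with library totals, which shifted the median of all genes by −0.12 on the log2 scale. The share of calls that were higher in Dicer LKO was 57.3%, and 44.3% with DESeq2, 30% with voom, 19.5% without control replicate 1 and 65.2% to 82.1% without any other 1 library. Of the 10 ligand genes, 2 were called, 1 to 2 without each library, and 1 with library totals. Gdf10 was called in each of the 12 planned settings, and Gdf2 was lost in 7 of those 12 settings. An alternative added after seeing the data, without Dicer LKO replicates 1 and 2, called 27 genes and 0 ligand genes by edgeR and turned Bmp2 to 0.091. Inhbe turned to 0.034 without control replicate 1, and Tgfb1 to 0.10 without Dicer LKO replicate 3 and 0.051 without control replicate 3. Their lowest values with libraries left out were −0.69 for Bmp2, −0.64 for Inhbe and −0.58 for Tgfb1. None of these 3 genes was called in any setting, and fewer samples were fitted in each.

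Replicate numbers are shared between the groups, and nothing says that they pair the samples. The deviations of same-numbered libraries from their group means correlated at 0.124, 0.061 and −0.121 across genes. With the replicate number as a block, 245 genes and 1 of the ligand genes were called: Gdf10 was at 1.76 (adjusted p = 0.0127, edgeR) and Gdf2 at 0.73 (adjusted p = 0.0714). Tgfb2 rests on 7 to 39 counts per library and Bmp4 on 21 to 44, which limits the precision of their values.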

Other observations

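The 5 genes whose pattern over the 6 libraries was most like that of Gdf10, by the root mean square difference of log2 CPM centred per gene, were Ccdc120 (0.163), Crispld2 (0.180), Vwf (0.180), Col6a3 (0.181) and Cyp39a1 (0.190). Crispld2, a secreted protein gene, was at 2.80, 3.48 and 3.19 CPM in Dicer LKO and 0.270, 0.576 and 0.765 CPM in the controls. Vwf, an endothelial clotting factor gene, was at 30.6, 39.2 and 26.4 CPM against 10.5, 11.4 and 13.4 CPM. Col6a3, a matrix collagen gene, was at 41.0, 48.9 and 43.9 CPM against 15.4, 13.3 and 18.3 CPM, and Cyp39a1, an oxysterol hydroxylase gene, at 43.5, 45.5 and 35.6 CPM against 8.43, 14.2 and 12.8 CPM. All 5 were called as higher by edgeR, as Gdf10 was, and their likeness follows in part from that.

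Around Inhbe and Inhbc, the neighbouring gene R3hdm2 was at a mean of 17.0 CPM in Dicer LKO and 47.1 CPM in the controls (−1.47, SE 0.34, adjusted p = 0.0841, edgeR) and Mbd6 at 2.70 against 8.35 CPM (−1.62, SE 0.40, adjusted p = 0.0888). Both had their highest value in control replicate 3, the library with muscle transcripts, at 68.8 and 13.1 CPM.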
